A study of Saccharomyces cerevisiae with 16 samples.

Results

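The genes described here are 31 budding yeast genes whose products cut and polyadenylate the 3′ end of a new mRNA, end its transcription, coat its tail or carry it out of the nucleus. They were chosen as the rows of the gene count table whose systematic name is on a list of these factors. All 31 were found among the 5696 host rows of the table, and all 31 passed the filter on low counts that left 5268 genes to test. RNA with a 5′ phosphate was sequenced by HT-5PSeq, with reverse transcription primed by oligo(dT) only, in strain BY4741 grown in SC-Ura medium for 4 h at 30 °C to an OD600 of 0.7. Such 5′ ends come mostly from mRNAs that are being degraded, so a read count here is not a measure of total mRNA.

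Every strain carried a plasmid. In 7 groups this low copy plasmid expressed mCherry from the promoter of RPS3 and ended it in the terminator of RPS3, a ribosomal protein gene. The modified terminators have 3 insertion sites of 9 bp, and the group name gives what each site holds. The groups modHTH, modHNH, modNGG, modNAA, modNTN and modNNN were modified, and the group WT had the unmodified terminator. The control group carried the plasmid POT1-ccdB without the reporter, so its plasmid may differ in more than the reporter. N stands for random sequence, and the insert named G is not described in the labels. The labels name no change to the 31 genes in any strain. The motifs named for the other 3 inserts are shown because these inserts, with N and G, are what differs by design between the modified strains. The motif given for A is shorter than a 9 bp site, and the rest of that site is not shown. All letters of the motifs are capitals.
A: ATATTC
H: TTTCATTTC
T: TGTACAATA

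An mRNA 3′ end is made by cutting the nascent transcript and adding a poly(A) tail at the cut. In yeast, cleavage factor IA (CF IA) and Hrp1 read signals in the RNA, and the cleavage and polyadenylation factor (CPF) holds the nuclease, the poly(A) polymerase and a phosphatase module. The exonuclease Rat1 then degrades the RNA downstream of the cut, which helps RNA polymerase II to stop, while many short noncoding transcripts end instead through Nrd1, Nab3 and Sen1.

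Each group had 2 libraries, and 13 of the 16 held 1070844 to 2939907 reads. For modHTH, modHNH and modNGG 1 of the 2 was near-empty, with 69, 267 and 477 reads, and was left out. These 3 groups therefore rest on 1 library each, assumed to vary like the others. No label states that libraries of one group were grown separately, and each p-value rests on the spread between libraries alone, which may be technical. The 31 genes took 0.381% to 0.514% of the reads of a library. The single libraries of modHTH, modHNH and modNGG gave 0.494%, 0.514% and 0.480%, against 0.395% and 0.412% in the control libraries. The libraries also differed in how the level of all genes went with gene length. The slope of the log2 deviation from a gene's mean was 0.120, 0.116 and 0.073 per doubling of gene span in modHTH, modHNH and modNGG. It lay between −0.088 and 0.033 in the other 8 reporter libraries, and at −0.044 and −0.066 in the control libraries. The 31 genes are longer than most, with a median span of 1578 nt (567 to 6696 nt) against 1257 nt over the tested genes with a known span. Values with this length trend removed are given where they differ in direction, so a change in size alone is mostly not shown.

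In level, the genes stood near the middle of all genes. Levels are given as CPM, the reads of a gene scaled to one common library size after edgeR's TMM normalization, and between genes only as CPM per kb of gene span, averaged over the 13 libraries. The median over the 31 genes was 54.4 CPM per kb (16.4 to 461), against 58.8 over all tested genes, and 13 of the 31 lay above that value. Annotated 3′ UTRs, known for 27 of the 31, had a median of 196 nt (66 to 476 nt) against 173 nt over the tested genes with an annotated transcript. CFT1, CFT2, NPL3 and SEN1 are in the count table but have no transcript in the deposited annotation. The spread between libraries of one group, as a pooled SD of log2 CPM over the 5 groups of 2, had a median of 0.20 over the 31 genes and 0.20 over all genes.

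PAB1 (YER165W), which encodes the main poly(A)-binding protein of the cytoplasm, stood highest at 461 ± 49.9 CPM per kb (SD, n = 13). HRP1 (YOL123W), which encodes cleavage factor IB and binds the UA-rich efficiency element, followed at 270 ± 61.2 CPM per kb. PAB1 was above HRP1 in 13 of 13 libraries. GLC7, the catalytic subunit of protein phosphatase 1, came next at 215 ± 42.7 CPM per kb. Then came YRA1, an mRNA export adaptor, at 173 ± 17.1 and SYC1, a small subunit of the phosphatase module APT, at 166 ± 24.8. At the other end were YSH1, the endonuclease that makes the cut, at 25.4 ± 3.66 CPM per kb, and REF2, which tethers Glc7 to the complex, at 19.3 ± 2.40. NPL3, an SR-like mRNA-binding protein, was lowest at 16.4 ± 8.27 CPM per kb, on 11 to 61 reads per library. It has no transcript in the deposited annotation, and whether its counted row covers the whole transcript could not be told. Its place in this order may therefore not be that of the gene. The spans of YRA1 and GLC7 include an intron, so their values per kb of mature mRNA are higher. Over the 30 pairs of neighbours in this order, the ranges over 13 libraries overlapped in all 30. Within libraries some neighbours kept their order: HRP1 was above GLC7, GLC7 above YRA1, RNA15 above NRD1 and YSH1 above REF2 in 12 of 13.

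**Figure D1:**
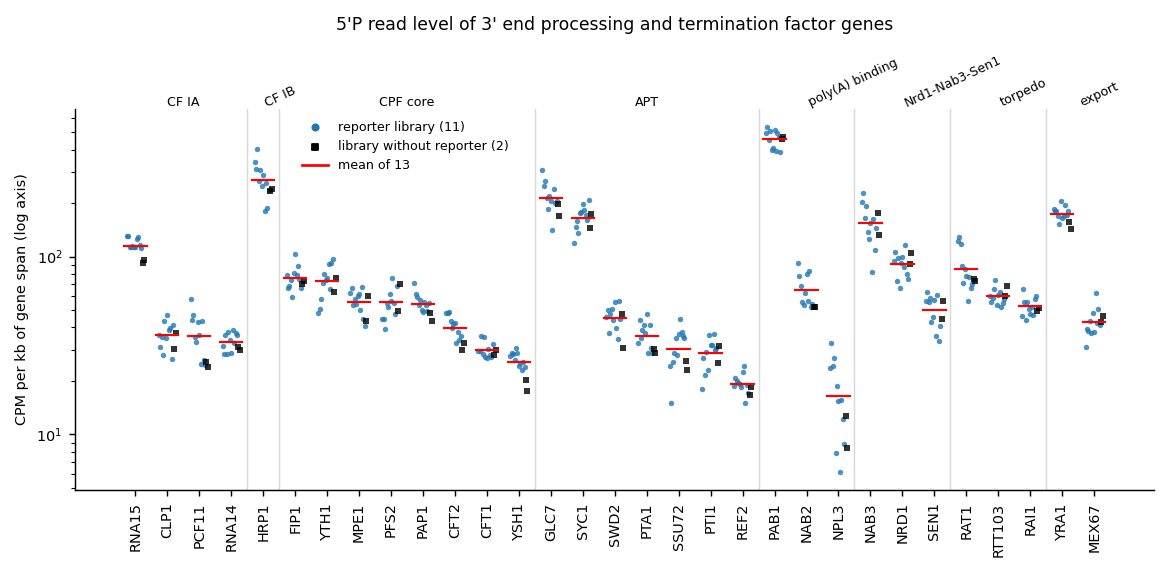
CPM per kb of gene span (log axis) for the 31 genes in blocks of role, with a circle for each of the 11 reporter libraries, a square for each of the 2 control libraries and a line for the mean of 13. PAB1 at 461 and HRP1 at 270 CPM per kb stand above the rest, and NPL3 at 16.4 has the widest spread.

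Levels also differed within complexes. In CF IA, RNA15 (YGL044C), an RNA-binding subunit, had 115 ± 11.9 CPM per kb. CLP1 had 36.1 ± 6.08, PCF11 (YDR228C), which binds the tail of RNA polymerase II, had 35.7 ± 10.8, and RNA14, the scaffold, had 33.1 ± 3.74 (SD, n = 13 each). The 8 CPF core genes ran between 25.4 and 75.5 CPM per kb, with FIP1, which joins the poly(A) polymerase to the complex, at the top and YSH1 at the bottom. The 7 genes of the phosphatase module APT ran between 19.3 and 215 CPM per kb. Of the Nrd1-Nab3-Sen1 genes, NAB3 had 155 ± 39.5, NRD1 91.0 ± 14.6 and the helicase gene SEN1 50.1 ± 9.92 CPM per kb. The exonuclease gene RAT1 (YOR048C) had 85.2 ± 22.9 CPM per kb, its partners RTT103, which binds the polymerase tail, 60.3 ± 6.24 and RAI1 52.4 ± 6.15. MEX67, the export receptor, had 43.1 ± 7.74 CPM per kb.

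The first comparison asked whether carrying the reporter went with another level of these genes, with each of the 7 reporter groups weighted equally. PCF11, the CPF core genes CFT2, YSH1 and PAP1, RNA15, NAB2 and RAT1 were higher with the reporter at an unadjusted p under 0.05, by 0.31 to 0.65 on the log2 scale, and none of the 31 passed adjustment over all genes. In edgeR's quasi-likelihood test with Benjamini-Hochberg adjustment, 0 of 31 genes were called at 0.05, against 0.380% of all genes tested. At the unadjusted p it was 7 of 31, all higher, against 18.2% of all genes in either direction. Of all 5268 genes, 432 were higher and 526 lower at that p. DESeq2 called 0 of the 31. Without the first modNNN library, edgeR called 2, PCF11 (adjusted p = 0.02) and CFT2 (adjusted p = 0.048), against 5.72% of all genes in that fit. The log2 fold change was above 0 for 25 of the 31, against 52.7% of all genes, with a median of 0.13 against 0.02 over all genes.

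PCF11 had 46.1 to 109 CPM in the 11 reporter libraries, with a median of 68.1, against 48.0 and 44.8 CPM in the control libraries. The modHTH library was highest, and the WT libraries, at 49.2 and 46.1 CPM, and 1 modNNN library, at 47.1 CPM, lay at the control level, so the groups overlapped. The log2 fold change was 0.65 (SE 0.18), with an edgeR adjusted p of 0.097. PCF11 lies on the minus strand of chromosome IV at 921926 to 923806 (R64), and its annotated 3′ UTR of 66 nt is the shortest of the 27.

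RNA15, at 416146 to 417036 on the minus strand of chromosome VII, had the least spread within groups of the 31, with an SD of 0.027 on the log2 scale. It had 100.2 to 116 CPM in the reporter libraries, with a median of 103, against 81.7 and 84.8 CPM in the control libraries. Every reporter library was above both control libraries, and the log2 fold change was 0.37 (SE 0.13, edgeR adjusted p = 0.15). Of the other CF IA genes, RNA14 had 57.6 to 79.0 CPM (median 69.3) with the reporter, against 62.7 and 61.0 CPM without it, a log2 fold change of 0.12 (SE 0.15), or 0.04 with the length trend removed. CLP1, whose human counterpart is an RNA kinase, had 35.5 to 62.8 CPM (median 48.8) with the reporter, against 40.5 and 49.6 CPM, a log2 fold change of 0.13 (SE 0.21). Both overlapped the control libraries, and CLP1 turned to −0.06 without the first control library.

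In the CPF core, CFT2, the catalytically inactive partner of Ysh1, had 84.5 to 127 CPM (median 107) in the reporter libraries, against 77.4 and 83.9 CPM in the control libraries. All 11 reporter libraries were higher, the lowest by a small margin, and the log2 fold change was 0.45 (SE 0.13, edgeR adjusted p = 0.12). YSH1 had 53.7 to 71.3 CPM (median 61.6), against 47.3 and 41.0 CPM. Here too the groups did not overlap, with a log2 fold change of 0.49 (SE 0.15, edgeR adjusted p = 0.13). PAP1, the poly(A) polymerase, had 83.8 to 121 CPM (median 94.2), against 82.5 and 74.4 CPM. Its log2 fold change was 0.31 (SE 0.13, edgeR adjusted p = 0.22), and its transcript shares 172 nt on the same strand with OSH6, so reads may be split between them. PFS2, a scaffold subunit, ran the other way, with 55.0 to 107 CPM (median 76.6) against 69.6 and 98.2 CPM. Its libraries overlapped, and its log2 fold change of −0.18 (SE 0.17), the lowest of the 31, turned to 0.04 without the second control library. YTH1, a zinc finger subunit that binds RNA, and CFT1, the largest subunit, had log2 fold changes of −0.02 (SE 0.17) and 0.08 (SE 0.13), and of 0.06 and −0.09 with the length trend removed. YTH1 stood at 0.03 with library totals as the scaling.

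Counted over all genes, 2.60% had every reporter library above both control libraries and 3.45% every one below. Among the 31 genes the first held for 4, RNA15, CFT2, YSH1 and PAP1, and the second for 0. For CFT2 and PAP1 the margin was small, at 84.5 against 83.9 CPM and 83.8 against 82.5 CPM. All 4 belong to CF IA or the CPF core, which hold 4 and 8 of the 31 genes. With only the groups of 2 libraries in the fit, their log2 fold changes were 0.31 (RNA15), 0.28 (CFT2), 0.42 (YSH1) and 0.17 (PAP1), and that of PCF11 was 0.39.

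Of the genes with other roles, HRP1 had 290.3 to 649 CPM (median 429) with the reporter, against 378 and 387 CPM without it, a log2 fold change of 0.26 (SE 0.15, edgeR adjusted p = 0.35). Its libraries spread to both sides of the control libraries, and the value was 0.03 with only the groups of 2 libraries. NAB2, a nuclear poly(A)-binding protein, had 82.1 to 145 CPM (median 98.5), against 82.5 and 82.0 CPM, and a log2 fold change of 0.39 (SE 0.15, edgeR adjusted p = 0.18), or 0.22 with only the groups of 2. NPL3 had the largest value, 0.68, with an SE of 0.37 and an edgeR adjusted p of 0.33. It had 7.62 to 40.5 CPM (median 19.5), against 15.8 and 10.5 CPM, and the groups overlapped. The value was 0.26 with only the groups of 2 and 1.07 without the first control library.

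PAB1 had 674 to 934 CPM (median 813) with the reporter, against 795 and 813 CPM, a log2 fold change of 0.01 (SE 0.14) that was −0.01 with DESeq2's size factors. NAB3 had 198 to 547 CPM (median 372), against 422 and 318 CPM, a log2 fold change of 0.06 (SE 0.20), and −0.06 with the length trend removed. NRD1 had 115 to 201 CPM (median 158), against 156 and 181 CPM, at −0.12 (SE 0.15). All 3 overlapped the control libraries.

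RAT1 had 170 to 388 CPM (median 235), against 225 and 220.2 CPM, with a log2 fold change of 0.31 (SE 0.14, edgeR adjusted p = 0.24). Of its partners, RTT103 stood at −0.10 (SE 0.14) and RAI1 at 0.08 (SE 0.15), and RAI1 at 0.02 with only the groups of 2. RAT1 depended on the 3 single libraries: with only the groups of 2 libraries in the fit, its log2 fold change was −0.02. Of the export genes, YRA1 had 222 to 298 CPM (median 261) with the reporter, against 226 and 208 CPM, at 0.25 (SE 0.13), and MEX67 had 55.9 to 112 CPM (median 74.2), against 77.1 and 82.9 CPM, at −0.11 (SE 0.16), or 0.01 with only the groups of 2 libraries. The 7 APT genes lay between −0.05 and 0.31. GLC7 was highest of these at 0.31 (SE 0.16), with 206 to 447 CPM (median 311) against 290.1 and 247 CPM, and stood at 0.11 with only the groups of 2 libraries and 0.21 without the second control library. SSU72, a phosphatase of the polymerase tail, had 9.34 to 27.7 CPM (median 21.5), against 16.1 and 14.3 CPM, at 0.17 (SE 0.23), with a range of 0.12 to 0.32 over the libraries left out in turn and 0.47 with only the groups of 2.

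**Figure D2:**
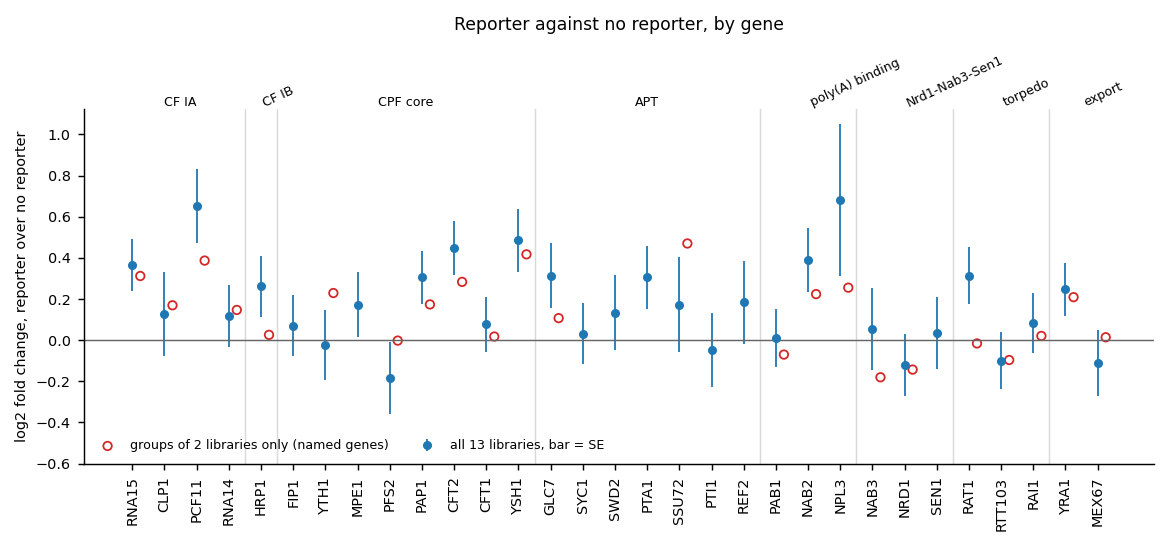
Log2 fold change of each gene, reporter over no reporter, with its SE (filled points), and the value with only the groups of 2 libraries in the fit for the genes described by name (open circles). PCF11 at 0.65, YSH1 at 0.49 and CFT2 at 0.45 stand highest among genes with an SE under 0.2, and RAT1 moves to −0.02 without the single libraries.

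A list of 29 other nuclear mRNA factors (the THO and export genes, the TRAMP and exosome cofactors, the Paf1 complex, elongation and cap-binding genes) was set beside them. All 29 were tested, edgeR and DESeq2 both called 0 in this comparison, and 9 were higher and 0 lower at an unadjusted p under 0.05. Over all 5268 genes tested, 432 were higher and 526 lower at that p, which is 18.2% in either direction. The median log2 fold change of the 29 was 0.06, with 19 of 29 above 0, against 0.02 and 52.7% over all genes.

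The unmodified reporter alone, WT against control, gave few differences in the 31 genes. The same 2 control libraries served here as above. edgeR called 0 of 31 genes, against 0.0380% of all genes, and DESeq2 called 0. At an unadjusted p under 0.05 it was 1 of 31, against 8.94% of all genes. That gene, YTH1, had 57.8 and 61.1 CPM in the WT libraries, against 39.4 and 47.7 CPM in the control libraries. Both WT libraries were higher, with a log2 fold change of 0.48 (SE 0.21, edgeR adjusted p = 0.51), or 0.29 without the first control library. RNA15 had 104 and 100.2 CPM in WT, against 81.7 and 84.8 CPM in control, at 0.30 (SE 0.16). PCF11, with 49.2 and 46.1 CPM in WT against 48.0 and 44.8 CPM in control, stood at 0.03.

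The second question was whether insertion sites filled with random sequence changed these genes, modNNN against WT. edgeR called 0 of 31, against 0.0190% of all genes, and DESeq2 called 0. At an unadjusted p under 0.05 it was 1 of 31, against 5.41% of all genes. This was MPE1, a RING finger subunit of CPF, with 66.5 and 89.4 CPM in modNNN, against 59.3 and 54.1 CPM in WT, at 0.46 (SE 0.20, edgeR adjusted p = 0.83), or 0.23 without the second modNNN library. The modNNN libraries stood apart from each other. In 6 of the 31 genes they differed by 1.5-fold or more, against 17.8% of all genes. NAB3 had 394 CPM in the second and 198 CPM in the first, a ratio of 1.99 with a 95% interval of 1.73 to 2.30, which covers counting error only. PCF11, GLC7, SEN1 and NPL3 were also higher in the second library, by 1.74, 1.70, 1.71 and 2.56 times, and REF2 was lower at 0.62 times.

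In the other groups of 2, fewer of the 31 differed that far. It was 1 gene in WT (11.4% of all genes), 0 in modNTN (6.15%), 2 in modNAA (9.57%) and 2 in control (8.35%). CLP1 was 1.55 times higher in the second WT library and 1.56 times in the second modNAA library. NPL3 was at 0.29 times in the second modNAA library, with 9.83 CPM in it and 33.6 CPM in the first. Since modNNN is the group that every other modified terminator is set against, its spread enters each comparison that follows.

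Adding 1 copy of T (modNTN against modNNN) or 2 copies of A (modNAA against modNNN) moved none of the 31 genes past even the unadjusted threshold. For modNTN, edgeR called 0 of 31 and 0% of all genes, and at an unadjusted p under 0.05 it was 0 of 31 against 1.92% of all genes. For modNAA, edgeR called 0 of 31 and 0% of all genes, and 0 of 31 against 6.21% at the unadjusted p. DESeq2 called 0 of 31 in both. The log2 fold changes of the 31 ran between −0.35 and 0.64 for modNTN and between −0.41 and 0.64 for modNAA. HRP1 had 429 and 494 CPM in modNAA, against 290.3 and 417 CPM in modNNN, at 0.38 (SE 0.19, edgeR adjusted p = 0.76). In modNTN it had 400.3 and 464 CPM, at 0.29 (SE 0.19). Both modNAA libraries were above both modNNN libraries, while the modNTN libraries overlapped with them.

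The 3 groups with a single library gave larger values, all against the same 2 modNNN libraries. In modHTH against modNNN, edgeR called 0 of 31 genes, against 0.0569% of all genes. DESeq2 called 1, RAT1, with a log2 fold change of 0.88 and an adjusted p of 0.039, among 0.968% of all genes. At an unadjusted p under 0.05 edgeR gave 10 of 31, against 19.5% of all genes, 6 higher and 4 lower. In modHNH it called 0 of 31 and 0% of all genes, and 6 of 31 at the unadjusted p, against 15.8%. In modNGG it called 0 of 31 and 0% of all genes, and 6 of 31 at the unadjusted p, against 14.4%. DESeq2 called 0 of 31 in both. Without the second modNNN library, which leaves 1 library on each side, edgeR called 6 of 31 in modHTH (12.7% of all genes), 7 in modHNH (10.0%) and 5 in modNGG (6.78%). RAT1, HRP1, GLC7 and NAB3 were among them in all 3.

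RAT1 was the gene with the smallest p in modHTH and in modHNH. It had 369 CPM in modHTH, 388 CPM in modHNH and 355 CPM in modNGG, against 170 and 233 CPM in modNNN. All 3 single libraries lay above every other library of the series, the control libraries at 225 and 220.2 CPM included. The log2 fold changes were 0.87 (SE 0.21, edgeR adjusted p = 0.10) in modHTH, 0.94 (SE 0.21, edgeR adjusted p = 0.19) in modHNH and 0.82 (SE 0.21, edgeR adjusted p = 0.21) in modNGG. RAT1 lies on the minus strand of chromosome XV at 418630 to 421650, and at 3021 nt it is one of the longer genes of the list. Over the changed settings, removal of the length trend among them, its values ran from 0.61 to 0.88 in modHTH. They ran from 0.71 to 0.95 in modHNH and from 0.64 to 0.82 in modNGG. How much of the RAT1 difference goes with gene length was not tested.

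HRP1 had 544 CPM in modHTH, 502 CPM in modHNH and 649 CPM in modNGG, against 290.3 and 417 CPM in modNNN. Its log2 fold changes were 0.62 (SE 0.23), 0.50 (SE 0.23) and 0.87 (SE 0.22), with edgeR adjusted p of 0.16, 0.29 and 0.21. Without the first modNNN library the modHTH value was 0.36, and leaving out either modNNN library put modHNH at 0.26 or 0.79. All 3 single libraries were again above every other library. NAB3, at 491, 547 and 399 CPM in the same order, against 198 and 394 CPM in modNNN, overlapped with the modNAA and control libraries. Its log2 fold changes were 0.73 (SE 0.31), 0.88 (SE 0.31) and 0.43, the last not past the unadjusted threshold. Without the first modNNN library they were 0.30 in modHTH and 0.47 in modHNH, and without the second 1.31 and 1.47. GLC7 had 447, 368 and 389 CPM, against 206 and 349 CPM, and PCF11 had 109, 82.5 and 88.1 CPM, against 47.1 and 82.0 CPM. Of these, GLC7 at 0.69 (SE 0.24) and PCF11 at 0.75 (SE 0.27) had an unadjusted p under 0.05 in modHTH, each with an edgeR adjusted p of 0.15. Without the first modNNN library these were 0.33 and 0.39, and without the second 1.12 and 1.21.

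Fewer genes were lower than higher at the unadjusted p in each of the single libraries. The same held in each of them over all genes tested. Whether the genes described here leaned further that way than all genes was not tested. SSU72 had 9.34 CPM in modHNH, against 27.7 and 23.5 CPM in modNNN, a log2 fold change of −1.45 (SE 0.42, edgeR adjusted p = 0.20) on few reads. In modHTH, the genes below 0 at an unadjusted p under 0.05 were PTI1, a CPF subunit, at −0.93 (SE 0.32), MEX67 at −0.75 (SE 0.28), YTH1 at −0.69 (SE 0.31) and SYC1 at −0.58 (SE 0.26). PTI1 had 23.1 CPM in modHTH, against 40.9 and 47.0 CPM in modNNN. MEX67 had 55.9 CPM in modHTH, against 112 and 75.9 CPM in modNNN, and its value was −0.46 without the first of these. In modNGG they were PFS2 at −0.74 (SE 0.28) and PTI1 at −0.66 (SE 0.28).

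**Figure D3:**
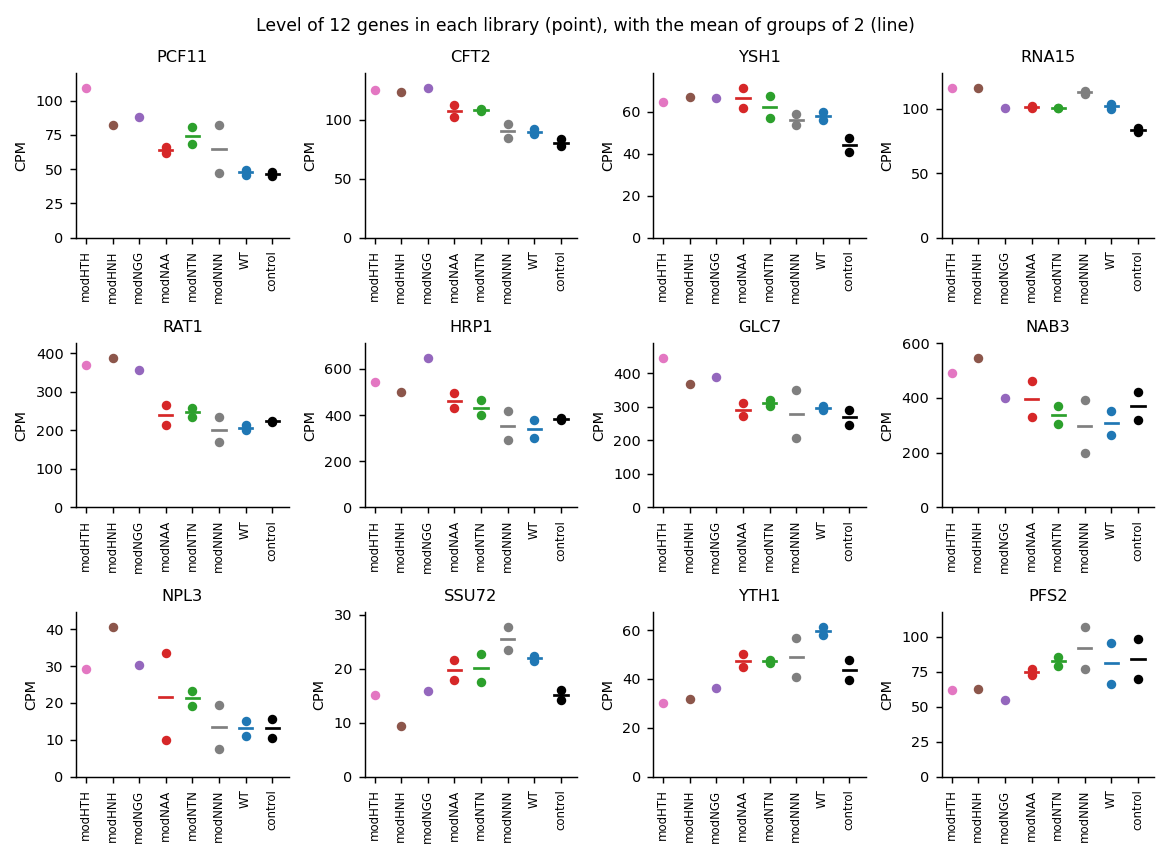
CPM of 12 genes, chosen after their values were seen, in each of the 13 libraries by group, with the mean of the groups of 2 as a line. RAT1 lies between 355 and 388 CPM in modHTH, modHNH and modNGG, against at most 266 CPM in any other library, while RNA15 separates the reporter libraries from the control libraries at 81.7 and 84.8 CPM.

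The 3 single libraries were then set against the other 8 reporter libraries, across their constructs. PCF11, HRP1, CFT2, PAP1, GLC7 and RAT1 were higher in all 3 than in any of the 8. That is 6 of 31 genes, against 11.0% of all genes. YTH1, PFS2 and SSU72 were lower in all 3 than in any of the 8, which is 3 of 31 genes, against 7.16% of all genes. RAT1 averaged 371 CPM in the 3 and 224 ± 31.1 CPM in the 8 (SD, n = 8). YTH1 averaged 32.7 CPM in the 3 and 50.7 ± 7.08 CPM in the 8. This split was made after the values were seen, it follows which libraries had a near-empty partner, and no test was run on it. Construct, single library and the length trend of these libraries cannot be told apart here.

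**Figure D4:**
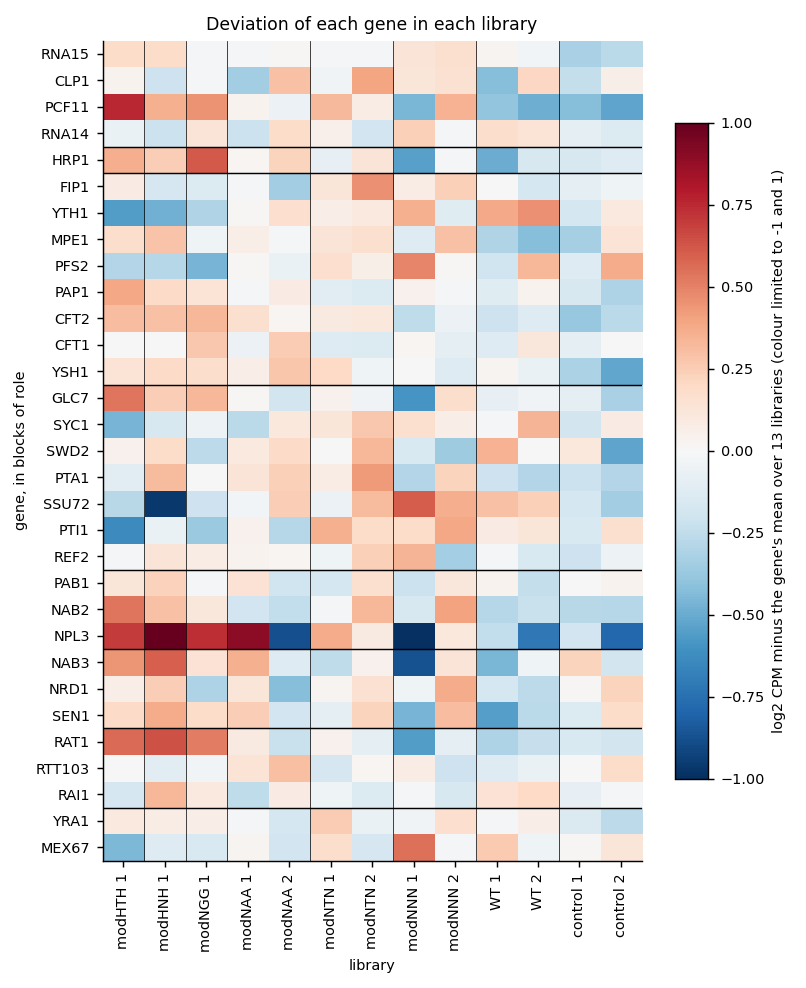
Log2 CPM of each gene minus its mean over 13 libraries, red above and blue below with the colour limited to −1 and 1, in blocks of role. In the modHTH, modHNH and modNGG columns RAT1, HRP1, PCF11, CFT2 and GLC7 are red while YTH1, PFS2 and SSU72 are blue, and NPL3 changes most between libraries.

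Tested for any difference among the 8 groups, edgeR called 0 of 31 genes, against 0.0190% of all genes. At an unadjusted p under 0.05 it was 6 of 31, against 19.2% of all genes. RAT1, PCF11 and HRP1 came nearest, with edgeR adjusted p of 0.075, 0.088 and 0.11, and DESeq2 called these 3, with adjusted p of 0.0011, 0.040 and 0.019, among 4.44% of all genes. Without the second modNNN library edgeR called 6 of 31 (12.3% of all genes), without the first 4 (7.79%), and without the second WT library 1, RAT1 (1.61%). The next in the main edgeR fit were CFT2 at 0.16, NAB2 at 0.18 and YTH1 at 0.22. With only the groups of 2 libraries in the fit, edgeR called 0 of the 31, against 1 of 5217 genes tested. The single libraries of modHTH, modHNH and modNGG were not left out in turn for this test.

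Taken per library, the median of the 31 log2 deviations was below 0 in the WT and control libraries and above 0 in most of the others. It was 0.08, 0.18 and 0.06 in modHTH, modHNH and modNGG, 0.03 and 0.01 in modNAA, 0.04 and 0.10 in modNTN and −0.01 and 0.09 in modNNN. It was −0.12 and −0.04 in WT and −0.15 and −0.13 in control. With the length trend removed, it was 0.04, 0.15 and 0.02 in modHTH, modHNH and modNGG, and −0.12 and −0.06 in control. The first modNTN library then turned from 0.04 to −0.003. The median over all genes tested lay within 0.02 of 0 in every library.

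**Figure D5:**
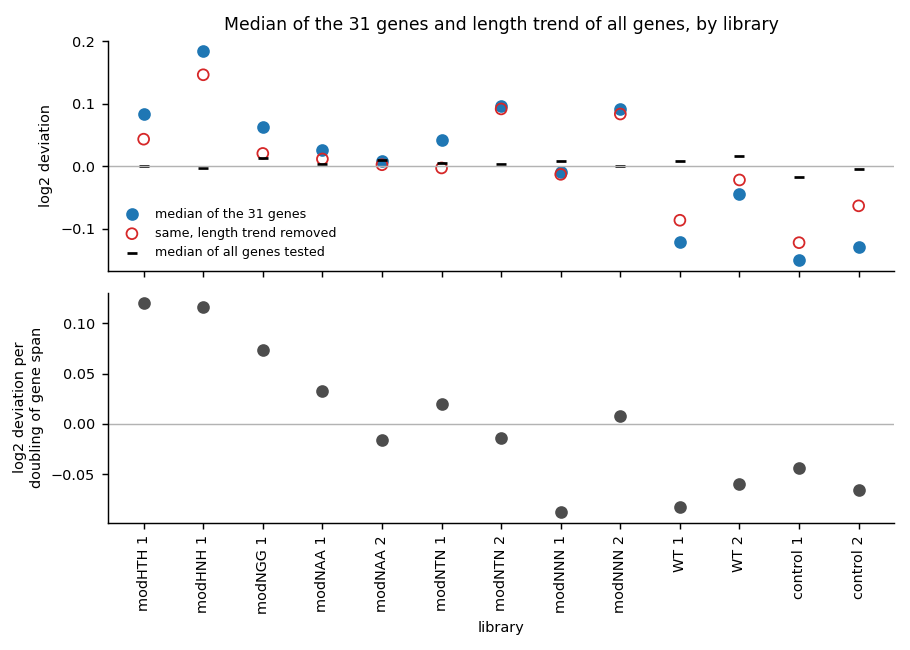
Upper panel, the median log2 deviation of the 31 genes in each library, as measured and with the length trend removed, beside that of all genes tested. Lower panel, the slope of log2 deviation per doubling of gene span over all genes, which is highest in modHTH and modHNH at 0.120 and 0.116 and lowest in the first modNNN library at −0.088.

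Some of the 31 share sequence with neighbours on the other strand in the deposited annotation. RTT103 overlaps NSE3 by 434 nt, YTH1 overlaps ISR1 by 314 nt, and PFS2 and REF2 overlap PHA2 and CAB5 by 244 nt each. HRP1 overlaps SMF1 by 101 nt and RNA15 overlaps RIM8 by 98 nt. RAI1 (209 nt), RNA14 (187 nt), SWD2 (173 nt), YRA1 (155 nt), MEX67 (105 nt) and FIP1 (19 nt) also have such an overlap. The sources used here do not give whether counting used strand, and reads of these pairs may not be told apart. PCF11, CFT2, YSH1, RAT1, GLC7, NAB3 and NPL3 have no overlapping neighbour there, but CFT2 and NPL3 have no annotated transcript of their own to compare.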

How the data were processed

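The authors deposited whole-number read counts per transcript, with no normalization, per the file headers and the values. The submitters' processing notes name sacCer3 (R64) and, with no order, FastQC, MultiQC, cutadapt, SAMtools, bedtools, HISAT2 and featureCounts. Versions, settings, the use of strand and any collapsing of molecular identifiers are not given in the sources used. Intervals treat each read as an independent count and cover counting error only. If several reads of a molecule were kept, they may be too narrow even for that. Gene spans and symbols come from RefSeq on R64, where 5550 of 5696 host rows matched, and UTRs from the deposited annotation (rtracklayer 1.42.1, per the file headers). The deposited tables of end positions do not cover these genes and were not used.

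The members, their roles, the list of related factors and the tests were chosen with earlier results of these data known. Libraries under 1000 reads and 2 plasmid rows were left out. All host genes were fitted in edgeR 4.0.16 (R 4.3.3; TMM, filterByExpr, glmQLFit, glmQLFTest) with group as the only term over 13 libraries, and adjusted over all genes tested (Benjamini-Hochberg, threshold 0.05). Alternatives used other scaling, no filter, DESeq2 1.42.0, a replicate block, a length trend (loess, span 0.5), only the groups of 2 libraries, and each library left out. For any difference among the 8 groups, the single libraries of modHTH, modHNH and modNGG were not left out. The fit was tried on simulated counts for the reporter comparison only. These had the same spread in all libraries and no length trend, so they do not bear on the single libraries. Full values are given for members with an adjusted p under 0.05, the 4 with the largest reporter change in each direction, CF IA, and the highest and lowest of each role. Other members are named where they passed the unadjusted threshold or were singled out after their values were seen. Replicate libraries differed by more than sampling noise, with a chi-square per degree of freedom of 2.91 to 9.66.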

Additional observations from a re-analysis of the deposited data

How the results depend on the processing

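Of 307 values of named genes under a changed setting, 293 kept their direction and their side of the threshold, as did 556 of 589 with a library left out. No member was called in the reporter comparison under any changed setting, nor in WT against control, modNNN against WT, modNTN or modNAA against modNNN under any alternative run. Over all genes the reporter comparison called 20 genes, but 61 without the filter and 57 in DESeq2. It called 0 with only the groups of 2 libraries, 12 with the length trend removed and 68 with the replicate block. DESeq2 called 1 member in modHTH and 3 in any difference, where library totals and no filter each gave 1. With a library left out, the members called ranged 0 to 2 for the reporter comparison, where PCF11 (adjusted p = 0.02) and CFT2 (0.048) passed without the first modNNN library. They ranged 0 to 5 for modNGG, 0 to 7 for modHNH, 0 to 6 for modHTH and 0 to 6 for any difference. The highest counts came when the second modNNN library was left out, where 357, 528, 669 and 646 of 5268 genes were called over all; without the first, the reporter comparison called 301. RAT1, HRP1, GLC7 and NAB3 were among those called in each of the 3 single libraries then, with RAT1 at 0.0046 to 0.013, and this leaves modNNN itself with 1 library.

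For the reporter comparison, PAB1 turned to −0.0071 with DESeq2's size factors, −0.0092 without the filter, −0.0471 with the length trend removed and −0.0698 with only the groups of 2. YTH1 turned to 0.0314 with library totals, 0.0594 with the length trend removed and 0.2293 with the groups of 2. The length trend also turned CFT1 to −0.0913 and NAB3 to −0.0563, and the groups of 2 turned RAT1 to −0.0157, MEX67 to 0.0142 and NAB3 to −0.1802. With a library left out, CLP1 ranged −0.0645 to 0.2468, PAB1 −0.0295 to 0.0285, PFS2 −0.475 to 0.0427, YTH1 −0.2069 to 0.0867 and NAB3 −0.1235 to 0.263. The members' median log2 fold change ranged 0.1063 to 0.1922 with a library left out and was 0.1969 with library totals. The cause of these shifts was not tested. Whether the replicate numbers pair the libraries was not tested. The difference between the 2 libraries of a group was correlated over genes between groups. Over 10 pairs of groups this ran from −0.307 (modNNN with modNAA) to 0.321 (WT with modNAA). With the replicate block, 0 members were called in every comparison and the median for the reporter was 0.1685.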
